A study of Rattus norvegicus with 3 samples.

Results

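The genes described here are 46 cell cycle genes, 28 of G2 and mitosis (G2/M) and 18 of DNA replication (S phase), taken as a fixed list and matched by symbol to the deposited feature tables of single-cell RNA libraries from injured rat spinal cord. Of the 46, 45 were found among 25199 features, 27 of the G2/M and all 18 of the S members. Ccnb2, a B-type cyclin, was not matched there and has no expression value here. Hells, a chromatin remodeller that acts with DNA methylation, was listed with 0 UMIs (unique molecular identifiers, the counted RNA molecules) in every library, so expression values rest on 44 of the members. Promoters are counted for Ccnb2 and Hells too.

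A dividing cell first copies its DNA and then sorts the copies into daughter cells, and genes for these steps are transcribed in waves. S members load and fire replication origins (Mcm2 to Mcm7, Gins2, Cdc6, cyclins Ccne1 and Ccne2), make nucleotides (Rrm1, Rrm2, Tyms, Tk1), hold polymerase on DNA and process its flaps (Pcna, Fen1), and keep DNA methylation (Uhrf1). G2/M members condense and untangle chromosomes, build the spindle, watch over kinetochores, degrade cyclins and split the cell. In resting adult cord most glia and neurons do not divide, whereas microglia, precursors of oligodendrocytes, Schwann cells, fibroblasts and blood-derived cells are known to be able to after injury.

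The study compared rats given an injection at the injury site of phosphate-buffered saline (PBS) or of a hydrogel named G-HD (written GHD in the treatment label) or MPG-HD. All animals were wild type and aged 6 to 8 weeks, 5 per condition, and a piece of cord 5 mm long centred on the injury was digested to single cells. Each condition has 1 library, and the labels do not say how its animals were pooled, nor the time after injury. No difference between libraries can therefore be set against a spread between animals, and library preparation cannot be told apart from treatment.

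After filtering, 5803 cells were kept, 1374 with PBS, 2342 with G-HD and 2087 with MPG-HD. Deposited UMIs were 16081082, 26289759 and 23988263 in that order, and the median kept cell had 10294, 9247.5 and 10425. Between 5 and 8 cell barcodes were shared by each pair of libraries. Cell classes were rebuilt by clustering without cell cycle genes and carry "like" names, since they rest on markers alone. Intervals given below are exact 95% intervals that cover counting error only, not animals or preparations. Levels are a gene's UMIs summed over the cells named and divided by all UMIs of those cells, times 1000000 (CPM), and no p-value was computed.

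The start regions of the members are shown first, because S and G2/M genes are known to carry different sequence elements there. The CHR element, bound by the DREAM and MuvB complexes, and the CCAAT box, bound by NF-Y, are known from genes of late cell cycle, and E2F sites from genes of S phase. Of the 46 members, 38 matched a RefSeq promoter of the assembly GRCr8, running from 250 bases before to 50 after the start. Both strands were searched, and matches may overlap, whether of the same motif or of different ones. For CHR the letters were TTTGAA and, as a second form, TTCGAA. The CCAAT box was searched by those letters. For E2F they were TTGGCGC, with the other forms TTCCCGC, besides TTCGCGC, and lastly TTGCCGC. CHR letters were in 17 of 24 G2/M promoters (70.8%) and 3 of 14 S promoters (21.4%), against 19.7% of all 33469 promoters. CCAAT letters were in 20 of the G2/M and 8 of the S promoters (83.3% and 57.1%, against 37.5% of all), and 15 G2/M promoters (62.5%, against 7.95% of all) held both. E2F letters ran the other way, with 9 S promoters (64.3%), 4 G2/M promoters (16.7%) and 9.52% of all. A match is a description of letters and does not show binding. Members that the results turn on are printed 5′ to 3′ along the gene's strand, with every match in capitals.
Cdk1 (chr20:19265043-19265342, plus strand): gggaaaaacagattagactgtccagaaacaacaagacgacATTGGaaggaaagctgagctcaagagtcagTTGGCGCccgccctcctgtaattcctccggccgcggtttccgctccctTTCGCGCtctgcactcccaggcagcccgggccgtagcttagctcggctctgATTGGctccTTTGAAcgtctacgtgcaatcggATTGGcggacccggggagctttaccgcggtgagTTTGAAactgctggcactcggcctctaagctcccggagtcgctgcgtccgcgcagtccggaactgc
Top2a (chr10:84473044-84473343, minus strand): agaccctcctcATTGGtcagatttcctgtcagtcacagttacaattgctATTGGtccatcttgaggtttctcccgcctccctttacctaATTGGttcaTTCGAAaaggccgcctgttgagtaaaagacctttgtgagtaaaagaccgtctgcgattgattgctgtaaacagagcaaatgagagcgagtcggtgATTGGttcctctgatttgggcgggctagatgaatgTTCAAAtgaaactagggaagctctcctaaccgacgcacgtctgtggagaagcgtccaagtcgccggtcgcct
Anln (chr8:29197464-29197763, minus strand): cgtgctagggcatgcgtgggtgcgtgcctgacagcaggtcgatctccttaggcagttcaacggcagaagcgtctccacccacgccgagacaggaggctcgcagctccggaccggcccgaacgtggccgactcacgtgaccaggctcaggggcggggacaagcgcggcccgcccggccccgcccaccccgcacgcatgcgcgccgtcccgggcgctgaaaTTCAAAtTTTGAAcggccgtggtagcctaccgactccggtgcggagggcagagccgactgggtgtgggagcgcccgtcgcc
Mcm6 (chr13:42404303-42404602, minus strand): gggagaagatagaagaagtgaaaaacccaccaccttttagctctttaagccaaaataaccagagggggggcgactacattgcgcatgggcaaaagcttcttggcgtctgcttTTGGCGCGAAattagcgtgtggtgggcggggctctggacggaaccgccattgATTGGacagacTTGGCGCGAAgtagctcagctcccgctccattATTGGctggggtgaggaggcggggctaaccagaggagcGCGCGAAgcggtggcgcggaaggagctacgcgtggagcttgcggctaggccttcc
Pcna (chr3:139955771-139956070, minus strand): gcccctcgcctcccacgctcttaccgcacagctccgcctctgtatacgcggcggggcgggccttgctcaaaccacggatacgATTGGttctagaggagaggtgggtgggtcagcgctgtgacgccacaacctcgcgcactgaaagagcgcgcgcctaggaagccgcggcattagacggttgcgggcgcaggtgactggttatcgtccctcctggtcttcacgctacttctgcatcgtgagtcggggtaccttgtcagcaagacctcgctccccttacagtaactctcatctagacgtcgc
Cdk1, the mitotic kinase, had 2 CHR, 3 CCAAT and 2 E2F matches, and Top2a, which untangles chromosomes, 2 CHR and 4 CCAAT matches and no E2F match. Mcm6, a part of the replicative helicase, had 5 E2F and 2 CCAAT matches and no CHR match. Its E2F matches starting at -138 and -135, and at -75 and -72, overlap on opposite strands, so 5 does not count separate sites. Anln, a scaffold of the cleavage furrow, had 2 CHR matches but no CCAAT, and Pcna, the sliding clamp, had 1 CCAAT match with neither CHR nor E2F letters. Among members with UMIs, Anln and Pcna also had the smallest shares of them in cells holding at least 10 members of either list (11.1 and 17.2%). Other members had the same gaps: Bub1b held CHR but no CCAAT letters, and Uhrf1 and Gins2 held CCAAT letters alone. A link between letters and these shares was not tested.

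Most cells carried few members. No G2/M member was found in 3127 of 5803 cells, 1 in 1539, 2 in 581 and 3 in 187. From 5 to 9 members there were 94 cells, from 10 to 14 there were 55, from 15 to 19 there were 56, and 95 cells held at least 20 of the 27, so the counts did not go on falling. These last 95 cells, 1.64% of all, held 59.3% of all G2/M UMIs, and 3 cells held all 27 members. For S members, 0 were found in 1544 cells, 1 in 1969 and at least 10 in 121, and no cell held more than 16 of the 18. Pcna alone gave 8648 of the 18461 S UMIs and was found in 3387 cells.

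**Figure D1:**
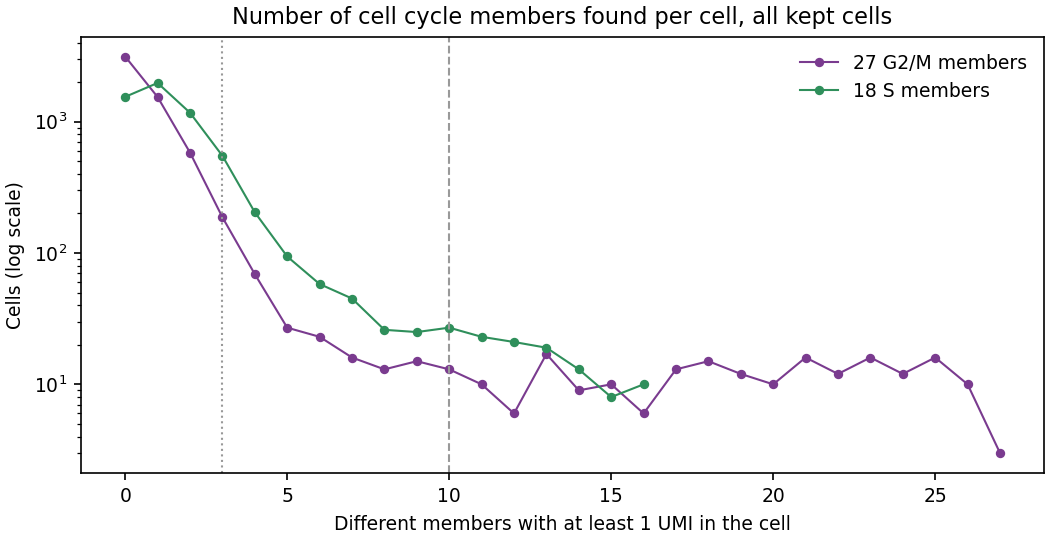
Number of kept cells of the 3 libraries (log scale) by the number of different members found in the cell, for the 27 G2/M (purple) and 18 S members (green). The dotted line marks 3 members and the dashed line 10; the G2/M curve falls to 16 cells at 7 members and then stays between 6 and 17 cells up to 26 members, and the S curve ends at 16 members with 10 cells.

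A cell with UMIs of at least 3 different members of a list was called a carrier of that list. A stricter line of at least 10 members was added after the counts per cell had been seen. Oligodendrocyte-like cells, which are post-mitotic when mature, served as the background, since their cells should lack these RNAs: 28 of 796 (3.52%, interval 2.35 to 5.04%) carried at least 3 G2/M members at a median of 11692 UMIs, but 1 carried at least 10 (0.126%). After each cell was thinned to 2000 UMIs, 0 of 646 deep enough were carriers, which allows a share of up to 0.464%. Neutrophil-like cells had also been planned as a post-mitotic background. Of these, 8 of 186 (4.30%) held at least 10 G2/M members, and when thinned 9 were carriers beside 78 that were not. That class did not lack these RNAs and is not used as background. For S members the background was higher, with 266 of 796 oligodendrocyte-like cells (33.4%) at full depth and 4 of 646 (0.619%) when thinned. Fen1 and Ccne2 were themselves highest in this class, so shares of S carriers at full depth are not read as division.

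G2/M carriers were more frequent in the G-HD library. They were 115 of 1374 cells in PBS (8.37%, 6.96 to 9.96%), 273 of 2342 in G-HD (11.7%, 10.4 to 13%) and 168 of 2087 in MPG-HD (8.05%, 6.92 to 9.30%). The G-HD share was 1.39 times the PBS share (1.12 to 1.75), the MPG-HD share 0.962 times the PBS share (0.754 to 1.23), and the MPG-HD share 0.691 times the G-HD share (0.566 to 0.840). G-HD thus stood above both other libraries by more than counting error, and PBS and MPG-HD did not differ beyond it. Counting cells with at least 2 members instead, G-HD over PBS was 1.05. At 10 or more members the cells were 38, 111 and 57 (2.77, 4.74 and 2.73%), and G-HD over PBS was 1.71 (1.18 to 2.55). Thinned to 2000 UMIs, the carriers were 38 of 1226, 112 of 2025 and 53 of 1879 (3.1, 5.53 and 2.82%), which left out 148, 317 and 208 shallower cells, and G-HD over PBS was 1.78 (1.23 to 2.65).

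At full depth S carriers were 287 cells in PBS (20.9%), 432 in G-HD (18.4%) and 403 in MPG-HD (19.3%), and no pair differed by more than counting error, with G-HD over PBS at 0.883 (0.759 to 1.03). Cells with at least 10 S members were 27, 60 and 34 (1.97, 2.56 and 1.63%), and G-HD over PBS was 1.30 (0.815 to 2.14). When thinned, 43, 76 and 42 cells remained (3.51, 3.75 and 2.24%), and MPG-HD over G-HD was 0.596 (0.399 to 0.879).

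Classes of blood cell lineages, called blood classes here whatever their source, held many of the G-HD cells. Neutrophil-like, monocyte-like, B-like and erythroid-like cells numbered 57 in PBS, 277 in G-HD and 59 in MPG-HD. They gave 1, 26 and 1 of the cells with at least 10 G2/M members, which were 2.63, 23.4 and 1.75% of those cells in each library. Without these 4 classes the carriers of at least 3 members were still 1.31 times as frequent in G-HD as in PBS (1.04 to 1.66). At 10 or more members the ratio without them was 1.47, and its interval (0.985 to 2.22) included 1. These classes were chosen after their counts had been seen. Blood in the tissue piece, cells that had entered the cord and cells carried in from another tissue cannot be told apart here.

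**Figure D2:**
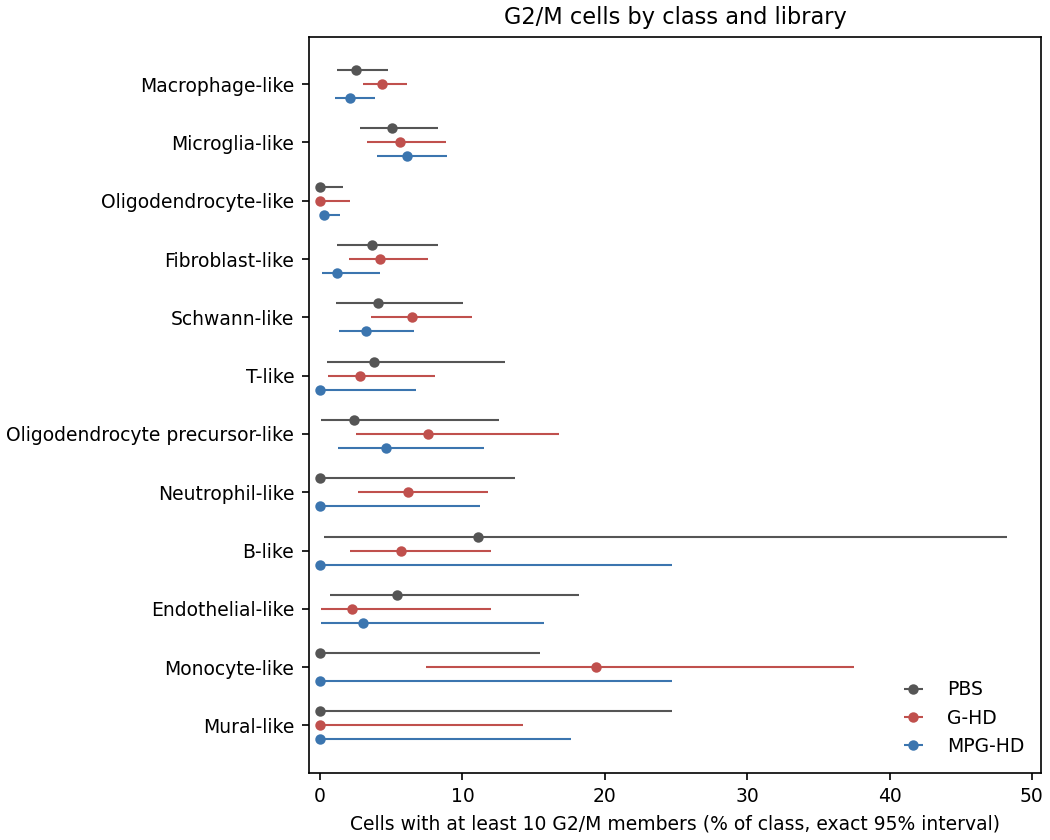
Share of each class's cells with at least 10 different G2/M members (percent, points) in the PBS, G-HD and MPG-HD libraries, with exact 95% intervals as bars, for classes of at least 50 cells. Microglia-like shares lie between 5.04 and 6.11% in all 3 libraries, oligodendrocyte-like shares lie at or near 0, and the small blood classes have wide intervals.

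Macrophage-like and microglia-like cells together made up 352 of the 556 G2/M carriers (63.3%, 59.2 to 67.3%). The shares were 71.3% in PBS, 59.3% in G-HD and 64.3% in MPG-HD. Among the 206 cells with at least 10 G2/M members both classes made up 107 (51.9%, 44.9 to 58.9%), with Schwann-like cells next at 25 and fibroblast-like cells at 17. The remainder were 10 oligodendrocyte precursor-like, 8 neutrophil-like, 7 B-like, 7 erythroid-like, 6 monocyte-like, 5 T-like, 4 endothelial-like, 1 oligodendrocyte-like and 9 unnamed cells. No mural-like (of 56) or NK-like cell (of 31) reached 3 members, and the intervals of their shares at 10 members reached 6.38 and 11.2%.

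In microglia-like cells the share differed little between libraries. At least 10 G2/M members were found in 14 of 278 cells in PBS (5.04%), 17 of 302 in G-HD (5.63%) and 25 of 409 in MPG-HD (6.11%), and the intervals overlapped throughout, with G-HD over PBS at 1.12 (0.519 to 2.45) and MPG-HD over PBS at 1.21 (0.607 to 2.53). Summed G2/M members stood at 539, 533 and 521 CPM. Interferon genes (Mx1, Ifit3, Isg15) led cluster 8, and it held 14 such cells of 221 (6.33%), beside 42 of 768 (5.47%) in cluster 0, which was led by Anxa3, Gpr84 and Ccl3.

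In macrophage-like cells the cells with at least 10 G2/M members were 9 of 354 in PBS (2.54%), 32 of 737 in G-HD (4.34%) and 10 of 471 in MPG-HD (2.12%). G-HD over PBS was 1.71 with an interval of 0.797 to 4.07, so these counts do not separate the libraries, whereas carriers of at least 3 members gave 1.63 (1.10 to 2.48). These cells were uneven within the class. Cluster 14, led by the lipid genes Fabp4 and Lpl and by Spp1, held 24 of them among 147 cells (16.3%), whereas cluster 1, the largest with 618 cells, held 1 (0.162%). Cluster 14 had 2 such cells of 46 in PBS, 18 of 80 in G-HD and 4 of 21 in MPG-HD. It also had the deepest cells, with a median of 26918 UMIs against 19233 in cluster 1, and the part of depth in this difference was not tested. Cluster 6, led by class II antigen genes, held 15 of 315, and cluster 3, led by C1q genes and named on the weakest marker score, 11 of 482, 9 of them in G-HD. The largest macrophage-like cluster was cluster 3 in PBS and cluster 1 in both hydrogel libraries, so the class is not the same mixture in each.

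Schwann-like cells formed a single cluster of 530 cells in which 4 of 99 (4.04%), 14 of 216 (6.48%) and 7 of 215 (3.26%) held at least 10 G2/M members with PBS, with G-HD and with MPG-HD. The intervals overlapped, and G-HD over PBS was 1.60 (0.504 to 6.69). Their median depth was 4513 UMIs, below that of the microglia-like cells (11941), and after thinning their share of carriers was 29 of 500 (5.80%, 3.92 to 8.22%), beside 54 of 978 microglia-like cells (5.52%, 4.18 to 7.14%).

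In the neutrophil-like class all 8 of its cells with at least 10 G2/M members lay in cluster 20, led by the granule genes Ngp and Camp, which are made by immature neutrophils, and all 8 came from G-HD, which gave 56 of the 62 cells of that cluster. Cluster 17, the other neutrophil-like one, held 0 of 124 (which allows up to 2.42%), at a median of 1482.5 UMIs per cell against 5813.5 in cluster 20. Monocyte-like cells showed the same uneven origin, with 6 such cells of 31 in G-HD and none among 22 in PBS or 13 in MPG-HD. Intervals of the PBS and MPG-HD shares reached 15.4 and 24.7%. Erythroid-like cells, 14 in all, held 7, and 6 of these were in G-HD.

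Fibroblast-like cells show how a few cells can set a summed level. Their G2/M members stood at 530 CPM in PBS, 390 in G-HD and 45.9 in MPG-HD. In PBS 948 of the 997 G2/M UMIs came from 5 cells, in G-HD 966 of 1079 came from 10, and in MPG-HD 45 of 106 came from 2. G-HD over PBS was 0.736 for the summed UMIs and 0.949 without the richest cell of each library. MPG-HD over PBS was 0.0866 (0.117 without those cells), whereas the share of cells with at least 10 G2/M members was 3.65% in PBS (1.20 to 8.31%), 4.20% in G-HD and 1.19% in MPG-HD (0.144 to 4.23%), with overlapping intervals. The class also differed in makeup, since cluster 12 was its largest cluster in PBS and MPG-HD and cluster 10 in G-HD. Schwann-like sums also turned on single cells. G-HD over PBS was 1.15 with all cells and 2.27 without the richest cell of each library, and MPG-HD over PBS moved from 0.721 to 1.17. That cell held 271 of 457 UMIs in PBS, 198 of 1108 in G-HD and 217 of 658 in MPG-HD. Leaving it out took the largest part from PBS, so 2.27 and 1.17 are not corrected values. In macrophage-like cells G-HD over PBS was 1.45 with all cells and 1.86 without the richest, and in microglia-like cells 0.990 and 1.06. The richest macrophage-like cell held 302 of 1087 UMIs in PBS and 261 of 3631 in G-HD, so here too PBS lost the larger part.

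By their own markers alone, 47 of 56 microglia-like, 36 of 51 macrophage-like, 17 of 25 Schwann-like and 12 of 17 fibroblast-like cells with at least 10 G2/M members fell in the class of their cluster, and some markers differed from those of other cells of the class. Schwann-like ones held Pmp22, a myelin protein gene, at 1049 CPM against 3894 CPM in cells of the class with under 3 members (ratio 0.269, 0.238 to 0.304), lower in all 3 libraries. Prx, of mature myelin, was at 0 UMIs against 230. Egfl8, Ngfr, Scn7a and Cdh19, also in the Schwann list, were at 0.564, 0.657, 0.193 and 0.407 times the level, each lower in all 3 libraries. Cdh19 rested on 3 UMIs in these cells, all in G-HD, and its interval (0.0819 to 1.24) included 1. The interval of Ncmap, with 0 UMIs against 23, reached 1.63 and also included 1. Dhh, a Schwann lineage signal, was the only gene of the 10 in that list not lower in all 3, at 131 and 138 CPM and lower in 2.

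The 10 oligodendrocyte precursor-like cells with at least 10 G2/M members also differed from other cells of their class. Pdgfra, the growth factor receptor that marks precursors, stood at 338 CPM against 63.9 in cells with under 3 (5.29, 3.52 to 7.80), and Cspg4, Ptprz1 and Cacng4 were 3.36, 2.92 and 3.06 times as high. Each of these 4 genes was higher in all 3 libraries, but the 10 cells were 1 in PBS, 5 in G-HD and 4 in MPG-HD. In the PBS cell Cspg4 had 2 UMIs and Cacng4 had 4, so directions per library rest on few cells. Other precursor markers were not: Tnr was at 0.597 times the level (0.338 to 0.981) and Olig1 at 0.831 (0.620 to 1.09), each lower in 2 of 3. Of the myelin genes, Mbp had 10 UMIs (93.9 against 8078 CPM) and Mag 0 against 4864. Bcas1, of newly differentiating cells, was at 0.318 times the level. Within this class, cells with many members thus had little RNA of these myelin genes.

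Macrophage-like cells with at least 10 G2/M members had more Fabp4 (2066 against 774 CPM), Clec10a (265 against 112) and Mrc1 (162 against 121). Cd163 (2.61 times) and Fn1 (1.97 times) were also higher, each of these genes in all 3 libraries. Gpnmb (0.790 times), Fabp5 (0.697), Pf4 (0.762) and Mmp12 (0.890) were lower in all 3, and the other macrophage markers were mixed. The median ratio of all genes was 0.51, 0.35 and 0.56 on the log2 scale in PBS, G-HD and MPG-HD. Each of the higher genes lay below that median in PBS or in G-HD and above it in the other libraries. Below it in PBS were Fn1 (61.1 against 58.7 CPM) and Fabp4 (1145 against 1036). Below it in G-HD were Mrc1 (124 against 114 CPM), Clec10a (128 against 114) and Cd163 (6.06 against 4.96). Fabp4 also led cluster 14, which held 24 of the 51 cells, and the part of cluster makeup was not tested. In microglia-like cells Tmem119, a marker of homeostatic microglia, stood at 144 against 214 CPM, lower in all 3 libraries, and Sall1 at 63.0 against 38.7, higher in 2 of 3. When cell cycle genes were kept for clustering, all 56 microglia-like, 43 of 51 macrophage-like and 22 of 25 Schwann-like cells with at least 10 members fell into unnamed clusters, whereas 16 of 17 fibroblast-like cells stayed in fibroblast-like clusters. An unnamed cluster of 208 cells there was led by Hba-a1 and Hba-a2, then Ube2c, Cenpf, Top2a and Mki67. In microglia-like and Schwann-like cells, carriers in thinned data had more UMIs at full depth than the other cells of the class (medians of 16509 against 11870 and 9579 against 4548). Their doublet scores were also higher (0.0589 against 0.0485 and 0.0731 against 0.0170). The same held in macrophage-like cells (19176 against 16088 UMIs, scores 0.0793 against 0.0623). It held in precursor-like cells too (10417.5 against 8470 UMIs, scores 0.105 against 0.0498). Carriers were deeper in every class compared except erythroid-like and unnamed cells. Their scores were lower only in monocyte-like and erythroid-like cells. The part of doublets in these cells was not tested.

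S and G2/M UMIs were set against each other in each library. PBS had 4422 S and 5243 G2/M UMIs, G-HD 7903 and 10876, and MPG-HD 6136 and 6622, which gave 0.843, 0.727 and 0.927 S UMIs per G2/M UMI. The G-HD value was 0.862 times that of PBS (0.820 to 0.905) and the MPG-HD value 1.10 times (1.04 to 1.16). Summed G2/M members in G-HD were 1.28 times the PBS level and S members 1.10 times. Without the 4 blood classes the G-HD value was 0.961 times that of PBS, with an interval (0.913 to 1.01) that included 1. For MPG-HD over PBS the direction turned when cells were thinned, to 0.918 at 2000 and 0.913 at 5000 UMIs.

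Values ranged more widely over classes than over libraries. Oligodendrocyte-like cells had 4.53 S UMIs per G2/M UMI (4.14 to 4.97), of which Pcna was 1283 of 2574 S UMIs, and mural-like cells had 7.21. Microglia-like cells had 0.597 (0.574 to 0.621), in the 3 libraries 0.606, 0.578 and 0.605, and Schwann-like cells 0.690. Macrophage-like cells stood at 1.21 in PBS, 0.848 in G-HD and 0.854 in MPG-HD. Neutrophil-like cells had the lowest value, 0.269 (0.220 to 0.326), and it differed between their clusters, at 0.162 in cluster 20 and 2.28 in cluster 17. Among cells with under 3 G2/M members the value was 3.47 over all classes, and among those with at least 10 it was 0.254. These last values are fixed by how the cells were chosen.

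**Figure D3:**
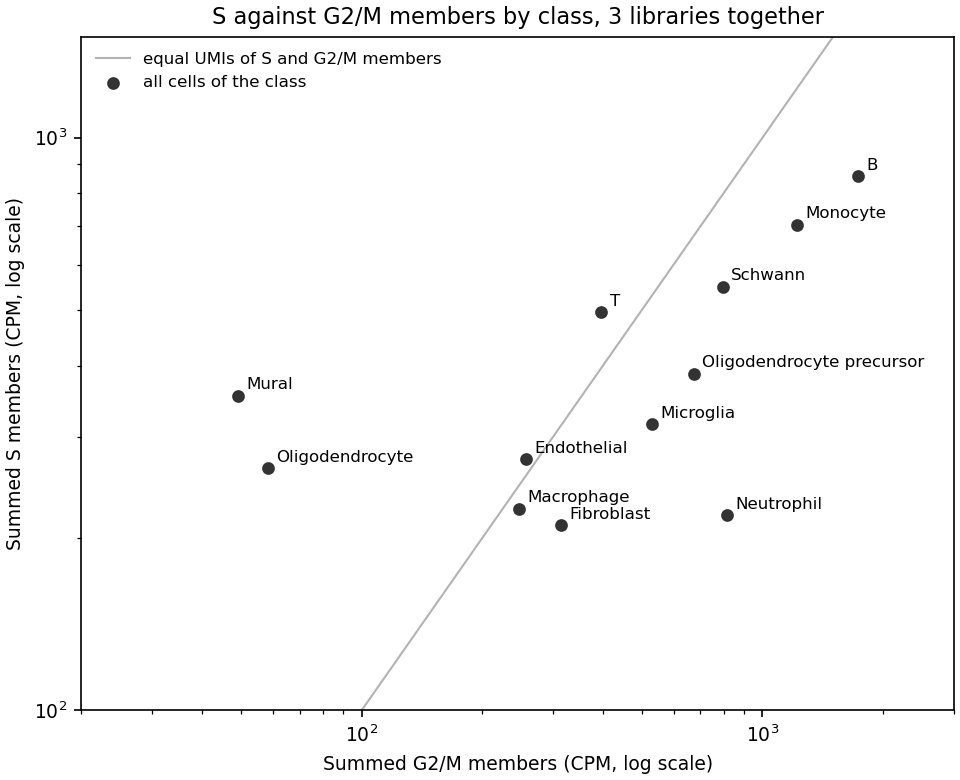
Summed S members against summed G2/M members (CPM, log scales) for each class of at least 50 cells, 3 libraries together; the line marks equal UMIs. Oligodendrocyte and mural classes lie far above the line, with 58.4 and 49.1 CPM of G2/M members, and the neutrophil class lies farthest below it.

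A line of 10 asks for a larger part of the 18 S members than of the 27 G2/M members. Numbers of S and G2/M cells at that line are therefore not compared with each other. At 10 or more members, 41 cells held S members only, 80 held both and 126 held G2/M members only, 247 in all. By library these were 48 of 1374 cells in PBS (3.49%), 130 of 2342 in G-HD (5.55%) and 69 of 2087 in MPG-HD (3.31%). Of these, 27 of the 206 cells with at least 10 G2/M members had under 3 S members, and 5 of the 121 with at least 10 S members had under 3 G2/M members. Genes that the choice of these cells did not use were then read in them. A fixed list of 43 other S genes stood at 2181 CPM in the S-only cells, 3511 in cells with both, 1188 in G2/M-only cells and 327 in the rest. A list of 68 other G2/M genes stood at 2100, 7703, 9805 and 1044 CPM. Of 64 other G2/M genes with at least 10 UMIs, 61 were past 1.5-fold higher in G2/M-only than in S-only cells, and 1, Mybl2, was past it the other way. Among all genes measured there 22.7% were past 1.5-fold higher and 12.9% lower. Of 39 other S genes 28 were lower and 2, Pclaf and E2f7, higher.

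The members' own levels in these cells are a description only, since the members chose the cells. Mcm6 stood at 209 CPM in S-only cells, 189 in cells with both and 17.2 in G2/M-only cells, and Cdc6, which loads the helicase, at 32.7, 35.0 and 2.94. Tk1 (85.9, 170 and 118 CPM) and Rrm2 (3.63, 31.7 and 14.2 CPM) were highest in cells with both and higher in G2/M-only than in S-only cells. On the mitotic side Cenpf, a kinetochore protein, had 2 UMIs in the S-only and 1154 in the G2/M-only cells, and Ccnb1, the mitotic cyclin, 4 and 529, whereas Mki67 (66.5 against 430 CPM) and Cdk1 (56.8 against 362 CPM) differed less.

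Levels of single members were compared between libraries over all kept cells. Past 1.5-fold in G-HD over PBS were 6 G2/M members higher and 1 lower of 27, against 9.56% of all genes higher and 14.5% lower. The members' median was 0.35 on the log2 scale and that of all genes -0.07. Of 17 S members measured, 2 were higher (Tyms 1.61-fold and Ccne1 1.65-fold) and 0 lower, with a median of 0.22. Without the 4 blood classes the count of higher G2/M members was 1, and without the richest cell of each member and library it was 10. In MPG-HD over PBS 0 G2/M members were higher and 1 lower (5.46% and 10.1% of all genes), with a median of -0.33. In MPG-HD over G-HD 1 was higher and 16 lower (11.9% and 12% of all genes), and 9 were lower without the blood classes. The comparisons share libraries, so these counts are not independent. No share of all genes was computed without the blood classes or without the richest cells, so those counts have no background beside them.

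**Figure D4:**
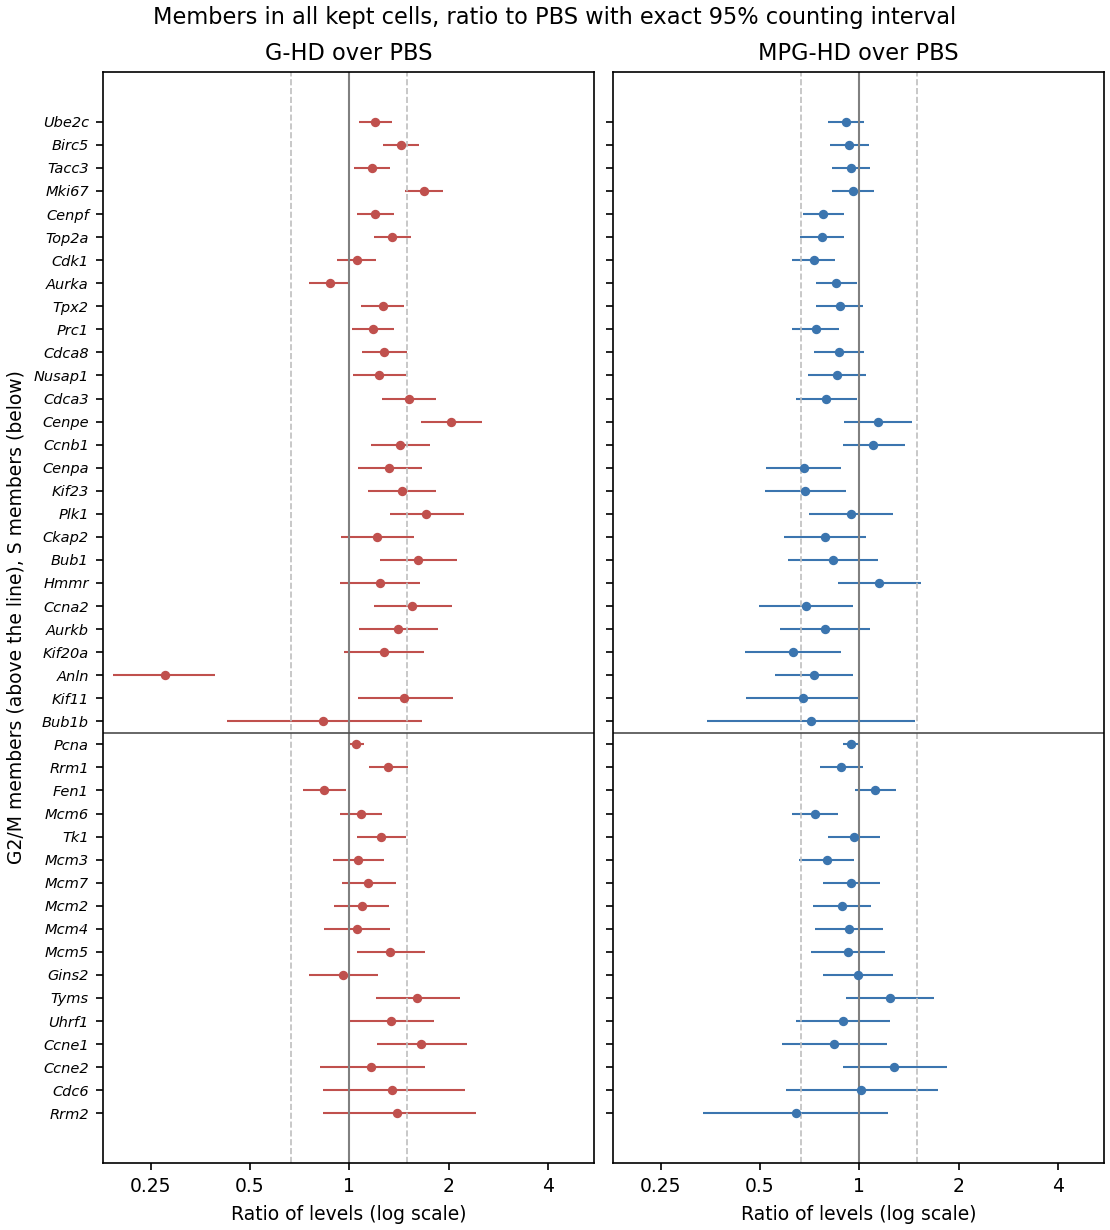
Ratio of each member's level (CPM over all kept cells, log scale) in G-HD (left) and MPG-HD (right) to PBS, with exact 95% counting intervals; dashed lines mark 1.5-fold. Most G2/M members lie above 1 in G-HD and below 1 in MPG-HD, and Anln lies far below 1 in G-HD at 0.276.

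Chromosome structure genes had the highest G-HD over PBS ratio of the role groups, 1.51 (1.38 to 1.66). Mki67, the coat of mitotic chromosomes and a common proliferation marker, had 313 UMIs in PBS, 854 in G-HD and 446 in MPG-HD (19.8, 33.2 and 18.9 CPM), 1.68 times as much in G-HD as in PBS (1.47 to 1.92). Top2a had 331, 727 and 379 UMIs (20.9, 28.2 and 16.1 CPM), 1.35 times (1.18 to 1.54). Both were highest in G-HD. Of Top2a's UMIs 96.4% lay in the 247 cells with at least 10 members of either list.

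Members that work with the ubiquitin ligase of mitosis were Ube2c, its ubiquitin-conjugating enzyme, and Cdca3. Ube2c had 453, 883 and 614 UMIs in PBS, G-HD and MPG-HD (28.6, 34.3 and 26.1 CPM), with 1.20 in G-HD over PBS, which became 0.905 without the blood classes. Cdca3 had 165, 406 and 195 UMIs and stood 1.51 times higher in G-HD than in PBS (1.26 to 1.83).

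At the kinetochore, Birc5, or survivin, of the chromosomal passenger complex, had 363, 845 and 503 UMIs (22.9, 32.8 and 21.4 CPM), and Cenpf 362, 705 and 418 (22.9, 27.4 and 17.8 CPM). Cenpf was at 1.20 in G-HD over PBS, and at 0.965 without the blood classes. Cenpe, the kinetochore motor, had 116, 384 and 196 UMIs, and its 2.04-fold ratio in G-HD over PBS (1.65 to 2.53) was the largest of the members. Bub1, a checkpoint kinase, was at 1.61, and Cdca8, Cenpa and Bub1b completed the group, with Bub1b at 58 UMIs in all.

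The spindle group was led by Tacc3 (381, 725 and 534 UMIs) and Tpx2 (266, 546 and 345 UMIs), 1.17 and 1.26 times as high in G-HD as in PBS. Nusap1, Ckap2, Hmmr and Kif11 completed it, at 1.22 to 1.47 in G-HD over PBS. Tacc3 was widespread, found in 1079 cells, and 32.3% of its UMIs lay in cells with at least 10 members of either list. Kif11, a spindle motor, had 54, 129 and 54 UMIs and was at 0.458 in MPG-HD over G-HD.

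Among cyclins and mitotic kinases Cdk1 had 345, 590 and 373 UMIs (21.8, 22.9 and 15.8 CPM) and did not differ beyond counting error between G-HD and PBS (1.05, 0.920 to 1.20). Its regulator Ccnb1 stood at 1.43, Ccna2 at 1.55 and Plk1 at 1.71, and Ccna2 was at 0.445 in MPG-HD over G-HD (77, 194 and 79 UMIs in PBS, G-HD and MPG-HD). Aurka, the kinase of spindle poles, had 343, 486 and 434 UMIs, and Aurkb, the kinase of the passenger complex, 78, 178 and 91. Aurka was found in 844 cells, 26.8% of its UMIs lay in cells with at least 10 members of either list, and its level was highest in microglia-like cells (54.4 CPM). Aurkb was found in 221 cells, with 70.6% of its UMIs in such cells.

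Of the cytokinesis genes, Prc1, which bundles the midzone, had 282, 540 and 309 UMIs, and the motors Kif23 (102, 239 and 104) and Kif20a (78, 161 and 73) were at 0.476 and 0.496 in MPG-HD over G-HD. Anln differed from the group, with 107, 48 and 116 UMIs, 0.276 in G-HD over PBS (0.192 to 0.391) and 2.64 in MPG-HD over G-HD. It was highest in oligodendrocyte-like cells (23.9 CPM) and 11.1% of its UMIs lay in cells with at least 10 members of either list. Oligodendrocyte-like cells made up 16.5% of the cells with PBS, 7.30% with G-HD and 19.1% with MPG-HD, so this class, like Anln, was lowest in G-HD. Within the class Anln had 93, 34 and 105 UMIs (35.5, 16.9 and 20.6 CPM), again lowest in G-HD.

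In G-HD over PBS the measured S members ran from 0.839 (Fen1) to 1.65 (Ccne1). The helicase subunits were led by Mcm6 (299, 527 and 327 UMIs) and Mcm3 (201, 347 and 238), at 1.08 and 1.06 in G-HD over PBS, and Mcm2, Mcm4, Mcm5 and Mcm7 lay between 1.05 and 1.33. Mcm6 was lower in MPG-HD than in PBS (0.736). Pcna had 2109, 3590 and 2949 UMIs (133, 139 and 125 CPM) with a G-HD over PBS ratio of 1.05 (0.992 to 1.11) and 17.2% of its UMIs in cells with at least 10 members of either list. Fen1, the flap endonuclease, had 313, 427 and 520 UMIs and, like Anln, was highest in oligodendrocyte-like cells (63.4 CPM). Of the nucleotide genes, Rrm1 had 305, 651 and 400 UMIs (1.31 in G-HD over PBS, 1.14 to 1.51) and Tk1 210, 427 and 301 (1.25). Rrm2 had 22, 50 and 21 UMIs and was at 0.459 in MPG-HD over G-HD (0.262 to 0.779). Among origin genes Gins2 had 117, 182 and 172 UMIs and Ccne1 57, 153 and 71, and Ccne2 was again highest in oligodendrocyte-like cells (9.67 CPM). Uhrf1 had 68, 148 and 90 UMIs.

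By class, 20 of 27 G2/M and 10 of 18 S members had their highest level in B-like cells among classes of at least 50 cells, and 4 of each in monocyte-like cells. B-like cells numbered 127, of which 105 were in G-HD, and 7 of them held 534 of their 606 G2/M UMIs. Top2a stood at 214 CPM there, 112 in monocyte-like, 67.2 in neutrophil-like, 66.6 in Schwann-like, 34.3 in microglia-like, 12 in macrophage-like and 0.411 in oligodendrocyte-like cells. Pcna, by contrast, lay between 80.1 CPM in fibroblast-like and 249 CPM in B-like cells.

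**Figure D5:**
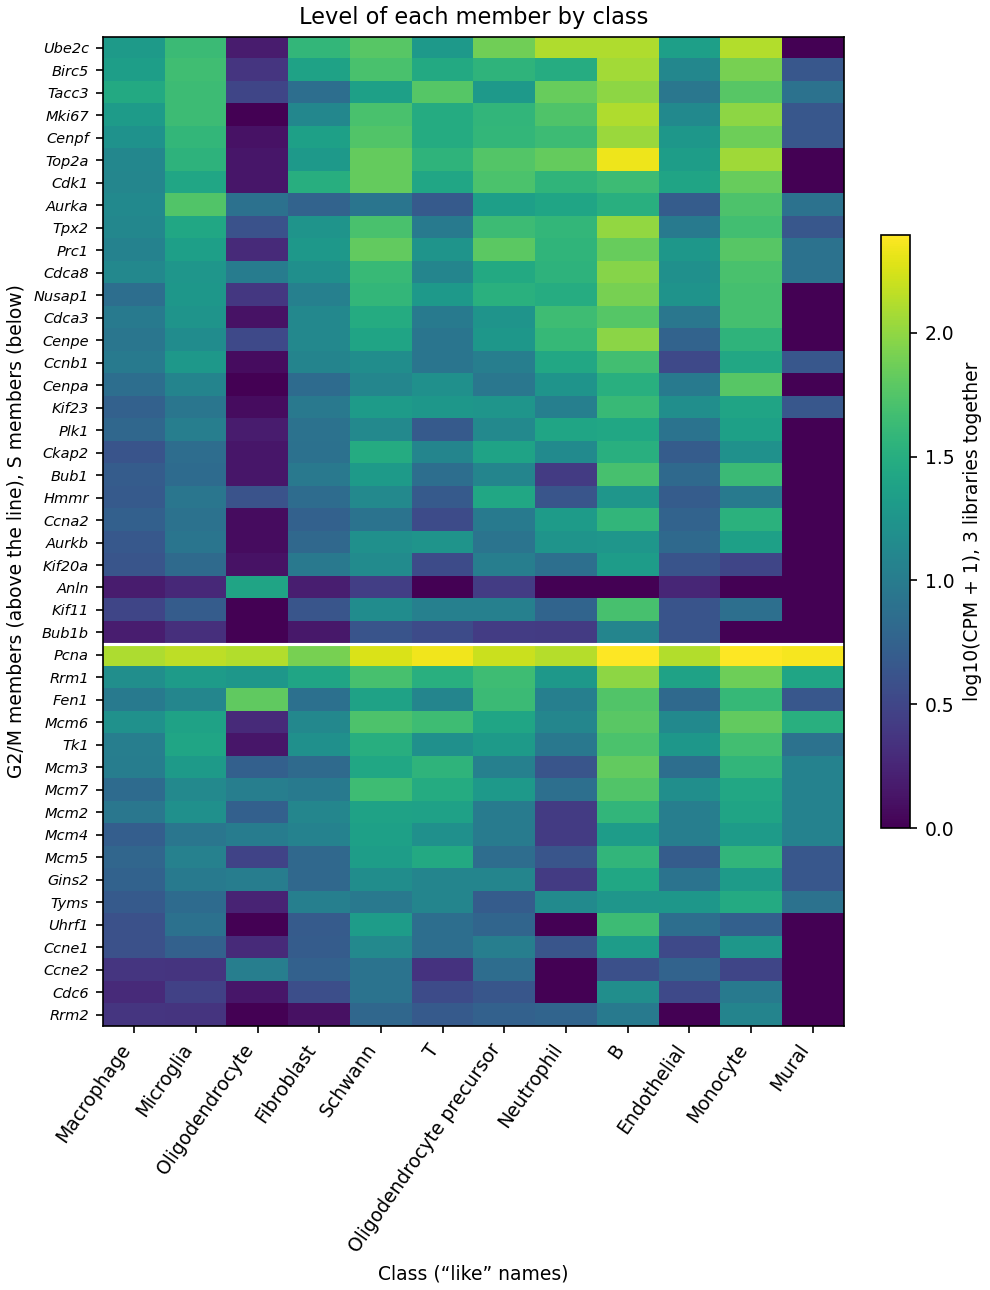
Level of each member (rows, G2/M above the line and S below) in each class of at least 50 cells (columns) as log10 of CPM plus 1, 3 libraries together. Most G2/M members are brightest in the B column and low in the oligodendrocyte column, where Anln is highest, and Pcna is bright in every column.

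Within classes, macrophage-like cells had 13 of 26 G2/M members measured past 1.5-fold higher in G-HD over PBS and 0 lower, against 10.2% of all genes higher and 9.94% lower. Their median was 0.59 on the log2 scale, beside 0.01 for all genes. Microglia-like cells had 4 of 25 higher and 0 lower (9.08% and 9.11% of all genes), with a median of -0.03. Schwann-like cells had 9 of 25 higher and 2 lower (15.2% and 11.7% of all genes). Without the richest cell of each member and library 20 were higher, a setting for which no share of all genes was computed. Whether the classes differ was not tested.

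MPG-HD was read in the same classes. In macrophage-like cells 4 of 25 G2/M members were higher and 1 lower than in PBS (7.26% and 9.92% of all genes), and 1 of 27 was higher and 9 lower than in G-HD (6.56% and 9.63%), or 15 lower without the richest cell of each member and library. Microglia-like cells had 2 of 26 higher and 3 lower than in PBS (7.15% and 10.1%), and 0 of 25 higher and 2 lower than in G-HD (7.07% and 8.94%). Schwann-like cells had 4 of 24 higher and 10 lower than in PBS (12.8% and 12.8%), with 5 lower without the richest cells, and 0 of 25 higher and 13 lower than in G-HD (7.73% and 13.3%). The counts without the richest cells have no share of all genes of the same setting beside them. Medians for MPG-HD over PBS were 0.22 in macrophage-like, -0.13 in microglia-like and -0.48 in Schwann-like cells on the log2 scale.

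Other cell cycle genes, fixed as lists, were read in the same way. Of 66 other G2/M genes measured over all cells, 19 were past 1.5-fold higher and 3 lower in G-HD over PBS, and of 42 other S genes 10 were higher and 0 lower, against 9.56% of all genes higher and 14.5% lower. The other G2/M genes with the most UMIs were Stmn1, Hmgb2 and Cks2. Stmn1, a microtubule regulator, had 12496, 11726 and 21502 UMIs (0.577 in G-HD over PBS), was highest in oligodendrocyte-like cells and had 13.1% of its UMIs in cells with at least 10 members of either list. Hmgb2, a chromatin protein, had 2931, 8931 and 3840 UMIs (1.87 in G-HD over PBS) and was highest in neutrophil-like cells. Cks2, a CDK partner, had 1391, 2023 and 1426. The other S genes with the most were Dut (702, 1352 and 919), Slbp (708, 1269 and 893) and Lig1 (420, 823 and 696), which limit uracil in DNA, process histone RNA and join DNA ends.

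Of 17 CDK inhibitors and G1 genes measured, 1 was past 1.5-fold higher and 1 lower in G-HD over PBS, against the same 9.56 and 14.5% of all genes. Btg2, an antiproliferative early gene, had 10255, 19388 and 15817 UMIs, Btg1, its relative, 1129, 3336 and 2096, and Ccnd1, the G1 cyclin, 1641, 2335 and 1907. Cdkn1a (p21) had 1046, 1910 and 1606 UMIs and was highest in neutrophil-like cells, Cdkn1b (p27) 784, 1181 and 1267, and Cdkn1c (p57) 1131, 1537 and 1823, highest in oligodendrocyte precursor-like cells at 786 CPM. Cdkn2a had 120, 229 and 153 UMIs, Cdkn2b 58, 126 and 73, and Cdkn2c 449, 729 and 608.

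Cdkn2c (p18), which inhibits CDK4 and CDK6, was higher in cells with at least 10 G2/M members in each class and library compared, which was also so for its target Cdk4 among these 17 genes. For Cdk4 the interval included 1 in microglia-like cells of G-HD (1.43, 0.833 to 2.31). It also did in Schwann-like cells of G-HD (1.59, 0.960 to 2.52) and MPG-HD (1.74, 0.803 to 3.36). In macrophage-like cells Cdkn2c stood at 96.7, 90.9 and 176 CPM in cells with at least 10 members in PBS, G-HD and MPG-HD, against 15.4, 13.7 and 12.8 CPM in cells with under 3. In microglia-like cells the values were 157, 151 and 138 against 14.4, 12.3 and 11.2 CPM, and in Schwann-like cells 274, 329 and 302 against 62.4, 49.7 and 60.3 CPM. The lowest of the 9 ratios was 4.39 (2.05 to 8.83), in Schwann-like cells of PBS. It stood at 16.9 CPM in S-only cells and 163 in G2/M-only cells, 9.64 times higher (5.66 to 17.8). Cdkn1a had no common direction. In macrophage-like cells of this kind it was at 41.2 against 77.6 CPM in G-HD (0.531, 0.365 to 0.748), and the intervals of PBS and MPG-HD included 1. In microglia-like cells the ratios were 1.58 in PBS (0.958 to 2.48), 0.368 in G-HD (0.175 to 0.688) and 0.507 in MPG-HD (0.273 to 0.866). In Schwann-like cells it was higher in MPG-HD (3.96, 1.66 to 8.49), and the intervals of PBS and G-HD included 1.

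Outside all lists, the genes whose log level over 5803 cells was most like the summed G2/M members were LOC100359539 (Pearson r 0.552), Knstrn (0.546), Kifc1 (0.527), Cep55 (0.443), Cenpt, H1f5, H2ax, Cenph, Tuba1b and LOC684773 (0.383). For the S members they were LOC100359539 (0.341), Tuba1b, Ran, Dctpp1 and Tcf19 (0.303). S and G2/M sums had r 0.346 with each other. These values describe cells that share libraries and depth, and weak values in sparse counts are not read further.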

How the data were processed

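Cells of injured rat cord were measured with the 10x 3′ kit v3 in 3 libraries, 1 per treatment. The deposited values are raw UMI counts per gene and cell barcode, made by the authors. Per the submitters' processing notes, counting used Cell Ranger 3.0.2, and GRCm38 and mm10, both of mouse, are named as builds. Features are rat Ensembl IDs, and the matrix states version 3.1.0 per the file headers. The rat build is not given in the sources used here. Of 6471 barcodes, those with 200 or more genes and no more than 20% of UMIs from mitochondrial genes passed (5815). Scrublet, run through Scanpy 1.11.5, called 12 doublets (0.2064%), which were removed. At so low a rate the caller is taken as not having worked, so doublets remain possible.

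Clusters came from 2000 variable genes without 156 listed cell cycle genes and 22 correlated with them (Pearson r of 0.3 or more), 30 components, 20 neighbours and Leiden at resolution 0.8 (leidenalg 0.10.2). They were named from marker lists, and a cluster led by other genes stayed unnamed. The members and lists were chosen with earlier results of these data known. A gene counted as past 1.5-fold where its sums held 10 UMIs or more between them. Shares have exact Clopper-Pearson intervals, and ratios exact conditional Poisson intervals (SciPy 1.17.1). With 1 library per treatment no test between treatments was possible. Some counts of 0 are given with the share that 3 counts would make, and others with the upper end of the exact interval. The counting steps were tested on simulated data. Every member is named by role. Values per library are given for the 2 members of a role with the most UMIs and for any past 2-fold between libraries with an interval leaving out 1. Of other lists they are given for the 3 genes with the most UMIs and each CDK inhibitor, and of all other genes the 10 (G2/M) and 5 (S) most correlated are named. Genes or clusters named beyond these were chosen after their values were seen. Some marker genes are not reported here.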

Additional observations from a re-analysis of the deposited data

Results flagged for a closer look

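Summed G2/M members lay on opposite sides of the PBS level in different classes, each by more than counting error. In G-HD over PBS the ratio was 1.45 in macrophage-like cells (1.36 to 1.56) and 1.15 in Schwann-like cells (1.03 to 1.28), but 0.736 in fibroblast-like cells (0.675 to 0.803) and 0.505 in T-like cells (0.398 to 0.642). In MPG-HD over PBS it was 1.23 in macrophage-like cells (1.14 to 1.33), but 0.721 in Schwann-like (0.639 to 0.814), 0.218 in T-like (0.142 to 0.325) and 0.0866 in fibroblast-like cells (0.0702 to 0.106). The difference between classes was not tested, since each treatment has 1 library. Both comparisons share the PBS library. T-like sums rested on 146 UMIs in PBS, 139 in G-HD and 30 in MPG-HD. Without the richest cell of each library the Schwann-like value for MPG-HD over PBS was 1.17, on the other side of 1. The fibroblast-like value for G-HD over PBS was then 0.949 and that for MPG-HD over PBS 0.117. The T-like values were 0.602 and 0.307. In each of these classes the richest cell held a larger part of the UMIs in PBS, so leaving it out raises ratios to PBS.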

How the results depend on the processing

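Of the recomputed values that answer a comparison, 90 stayed within the counting interval or within 1.5 times the count, 39 moved and 2 reversed. Of those for single members or classes, 590 stayed, 119 moved and 6 reversed. The settings with at least 10 members, without the 4 blood classes, without cluster 14, without Pcna and without the richest cell of a class were chosen after seeing the data. The causes of the moves were not tested.

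For G2/M carriers, G-HD over PBS was 1.05 with at least 2 members and 1.78 when thinned to 2000 UMIs, and MPG-HD over G-HD 0.863 and 0.510. For S carriers, G-HD over PBS was 1.04 with at least 5 members, 1.30 with at least 10, and 1.07 and 1.08 when thinned to 2000 and 5000 UMIs. MPG-HD over PBS was 0.637 thinned to 2000, and MPG-HD over G-HD 0.816 with at least 5 and 0.636 with at least 10 members, 0.596 and 0.813 when thinned, and 0.874 with pooled class weights. For S per G2/M UMI, G-HD over PBS was 0.735 and 0.773 when thinned, 0.919 with pooled class weights and 0.961 without blood classes. MPG-HD over PBS reversed to 0.918 and 0.913 when thinned. MPG-HD over G-HD was 1.18 thinned to 5000, 1.20 with pooled weights, 1.14 without blood classes and 1.21 without Pcna.

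The macrophage-like and microglia-like share of G2/M carriers was 42.8% with cell cycle genes kept in clustering, 50% with only the fixed lists left out, 54.0% with classes from each cell's own markers, 55% with at least 5 members, 51.9% with at least 10 (60.5% in PBS, 44.1% in G-HD), and 47.8 and 54.4% when thinned. The count of G2/M members higher in G-HD over PBS was 10 without the richest cell and 1 without blood classes. The count lower in MPG-HD over G-HD was 10 with every cell weighing the same and 9 without blood classes. Macrophage-like counts were 2 S members higher in G-HD over PBS with equal weights and 15 G2/M members lower in MPG-HD over G-HD without the richest cell. Schwann-like counts without it were 20 higher in G-HD over PBS and 5 lower in MPG-HD over PBS. For none of these counts was a share of all genes computed under the same setting. Without blood classes Ube2c (0.905) and Cenpf (0.965) reversed in G-HD over PBS and Ube2c (1.01) in MPG-HD over G-HD. With equal weights Cdk1 (1.03), Kif20a (1.15) and Cdca3 (1.15) reversed in MPG-HD over PBS.

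No paired analysis was possible because each treatment has 1 library. No replicate was left out, for the same reason.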
